A study of Mus musculus with 15 samples.

Results

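The 6 lungs of secretome-treated (SCR) mice, of 15 lungs in the series, fell into sets of 3 that differed from each other in the levels of many transcripts. SCR lungs 1 to 3 were set against SCR lungs 4 to 6 over all 15496 genes that passed a filter on low counts, with genes of the X and Y chromosomes left out. The sets were made after the data were seen. They were chosen by measured levels of transcripts, since lungs 1 to 3 carried more transcripts of glucocorticoid response genes and of Scgb1a1, and fewer transcripts of mesothelial and B cell markers, than the other lungs. Their differences are therefore given as a description, with standard errors and without tests. Neither the labels nor the methods name any difference in handling between the sets.

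All animals were athymic Swiss nude mice (Foxn1nu/nu), male or female, 8 to 12 weeks old and weighing 20 to 30 g, and such mice lack a thymus and hold few T cells. The SCR group received 25 µL of 143B secretome into the peritoneum each day for 1 week. 143B is a human osteosarcoma line, and its secretome was exosome-free medium collected after 24 h on the cells and concentrated over a filter of 10 kDa. The series also held 4 control lungs (CTR) and 5 lungs of mice bearing a primary tumour (PT) of 143B-Luc+ cells under the skin, taken at 50 to 60 cubic mm. The CTR mice are called vehicle-treated in one place of the study and untreated in another, so whether each received vehicle could not be settled here. Each library came from 1 lung sample, and the labels do not say how pieces were taken. By Xist and Y-linked transcripts, SCR lungs 1, 2, 3 and 5 came from males and SCR lungs 4 and 6 from females, as did PT lungs 3 and 5, while all CTR lungs came from males. SCR lung 5 is therefore the only lung of its set with the sex of lungs 1 to 3, and its value is given wherever single lungs are listed.

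The transcripts that set these lungs apart belong to well-known programmes. Glucocorticoids bind a nuclear receptor that raises the transcription of genes such as Fkbp5, Zbtb16 and Per1, and circulating corticosterone follows a daily rhythm and increases under stress. The mesothelium is the single cell layer that covers the lung surface, and its genes include Msln and Wt1. Club cells line the small airways, secrete Scgb1a1 and carry enzymes that detoxify inhaled and circulating compounds. B cells in the mouse lung lie in the vessels and in scattered lymphoid aggregates. In RNA from whole tissue, fewer cells of a type and less RNA per cell cannot be told apart.

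All 15 libraries carried the alveolar type 2 transcript Sftpc at 10908 to 32928 CPM, that is, counts scaled to a common library size with TMM factors. Total counts were 14652466, 18621680 and 14407684 in SCR lungs 1 to 3 and 17493089, 13912651 and 13078095 in SCR lungs 4 to 6, within the range of all lungs (12767431 to 22109856). The set of lungs 1 to 3 showed fewer genes with at least 10 counts (15069 ± 267 against 15623 ± 270, mean ± SD, n = 3 each), and no lung of one set overlapped the other. The total count and the mitochondrial share of counts (2.74% ± 0.423 against 3.21% ± 0.956, SD, n = 3) overlapped between the sets. The 50 most abundant genes took 21.8% ± 2.92 of the counts in lungs 1 to 3 and 16.2% ± 1.07 in lungs 4 to 6 (SD, n = 3). The first principal component of all 15 lungs, which held 31.7% of the variance, placed lungs 1, 2 and 3 at 75.3, 43.7 and 63.9. Lungs 4, 5 and 6 were at -21.9, -22.6 and -21.1 on it, among the CTR and PT lungs (-32.1 to 13.2).

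Of the 15496 genes, 3412 lay higher in every one of lungs 1 to 3 than in any of lungs 4 to 6 (22%), and 3279 lay lower without overlap (21.2%). Over 2-fold as well, 382 genes were higher (2.47%) and 1138 lower (7.34%), so that 25.1% of these 1520 genes were higher. That split depended on the scaling. It was 188 higher and 1648 lower, or 10.2% higher, with library size alone, which moved the median of all genes to -0.21 on the log2 scale from 0.01. On the deposited FPKM with a pseudocount of 0.1 it was 472 higher and 724 lower, or 39.5% higher. The lungs of the set 1 to 3 also differed more among themselves. Between lungs 4, 5 and 6 the median absolute log2 difference of a gene was 0.16 to 0.20, with 587 to 818 genes over 2-fold apart, while between lungs 1, 2 and 3 it was 0.28 to 0.37 with 1082 to 1356 genes. SCR lung 2 was intermediate. Its median distance to lungs 4 to 6 was 0.28 to 0.29, close to its distance to lung 3 (0.28) and below that to lung 1 (0.37). SCR lung 1 was 0.49 to 0.52 away from lungs 4 to 6 and SCR lung 3 was 0.42 to 0.43 away. With male lungs alone, where SCR lung 5 stood for its set, 740 genes were over 2-fold higher and 1614 lower, a rule that is easier to meet with 1 lung. Without SCR lung 2, 746 genes were over 2-fold higher in the set without overlap.

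**Figure D1:**
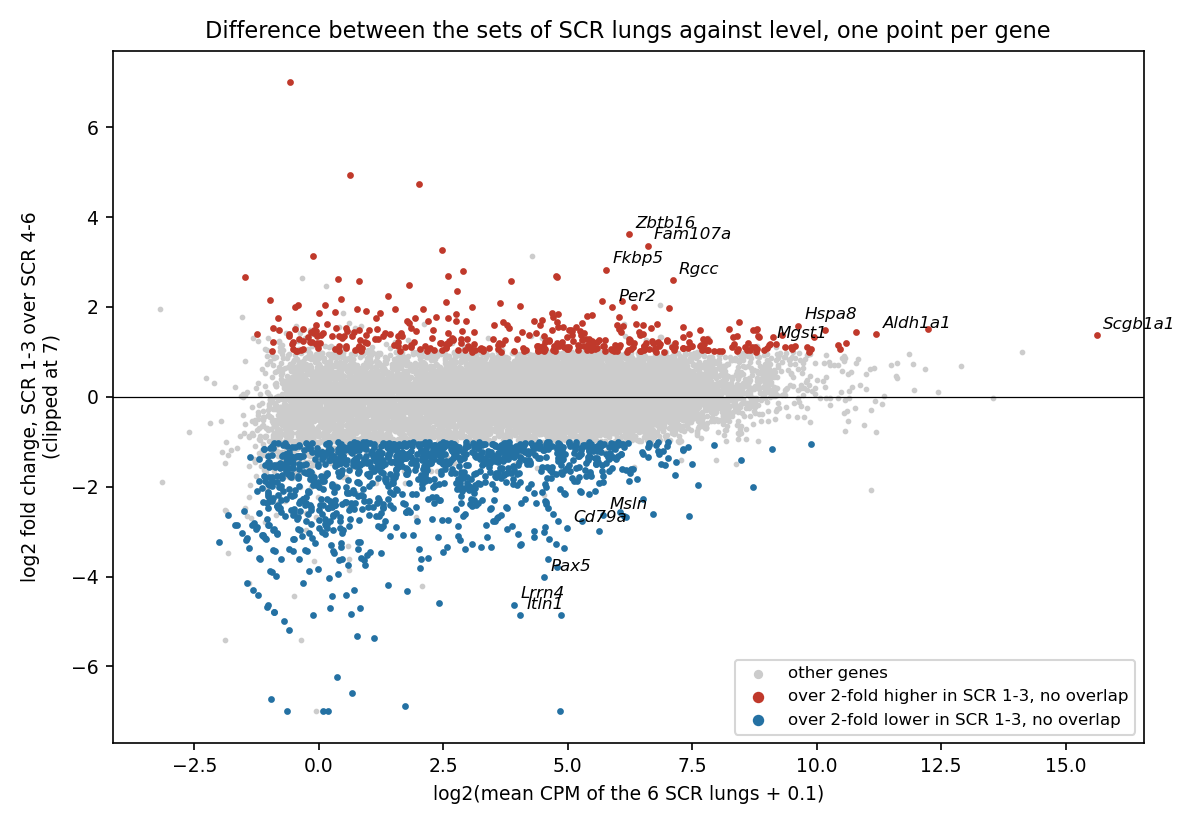
Each point is 1 of 15496 genes, placed by its mean level in the 6 SCR lungs (horizontal axis, log2 of CPM + 0.1) and by its log2 fold change of SCR lungs 1 to 3 over lungs 4 to 6 (vertical axis, clipped at 7). The 382 genes over 2-fold higher without overlap (red) reach up to Scgb1a1, the most abundant transcript named, and the 1138 lower genes (blue) lie mostly at low and middle levels. Fitted values of genes with few or no counts depend on the model and are not bounds.

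The 6 transcripts used to mark the sets showed the pattern in every lung. Fkbp5 (chromosome 17, 28399095 to 28517524, minus strand, GRCm38), a co-chaperone of the glucocorticoid receptor, had 121, 103 and 63.4 CPM in SCR lungs 1 to 3 and 14.1, 12.3 and 14.1 CPM in lungs 4 to 6. The CTR lungs had 10.6, 16.7, 16.2 and 15.4 CPM of Fkbp5 and the PT lungs 13.2, 16.6, 15.2, 23.0 and 29.2 CPM. Lungs 1 to 3 thus lay above all 12 others, with a log2 fold change of 2.83 (standard error 0.29) over lungs 4 to 6.

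Scgb1a1 (chromosome 19, 9083636 to 9087958, minus strand), the main secreted protein of club cells, had 74907, 41476 and 102237 CPM in lungs 1 to 3 and 24587, 29205 and 30905 CPM in lungs 4 to 6. The other 9 lungs had 19905 to 36606 CPM, so SCR lung 2 lay just above the highest of them. Aldh1a1, which oxidises aldehydes and retinal, had 3362, 2650 and 4178 CPM against 1237, 1476 and 1168 CPM, and Mgst1, a glutathione transferase of membranes, 739, 470 and 1028 CPM against 290, 360 and 338 CPM. The log2 fold changes were 1.37 for Scgb1a1 (standard error 0.31), 1.39 for Aldh1a1 (0.24) and 1.18 for Mgst1 (0.24).

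Msln (chromosome 17, 25748614 to 25754327, minus strand), the surface protein mesothelin of mesothelial cells, had 32.5, 7.30 and 4.18 CPM in lungs 1 to 3 and 70.3, 95.5 and 104.8 CPM in lungs 4 to 6. SCR lung 1 was close to the lowest of the other lungs, PT lung 1 at 35.5 CPM and CTR lung 1 at 38.9 CPM, and lungs 2 and 3 were far below. Cd79a (chromosome 7, 24897381 to 24902197, plus strand), a signalling chain of the B cell receptor, had 8.38, 4.13 and 9.93 CPM against 70.2, 36.9 and 60.5 CPM, and 23.1 to 62.8 CPM in the CTR and PT lungs. The log2 fold changes were -2.63 for Msln (standard error 0.68) and -2.92 for Cd79a (0.39).

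**Figure D2:**
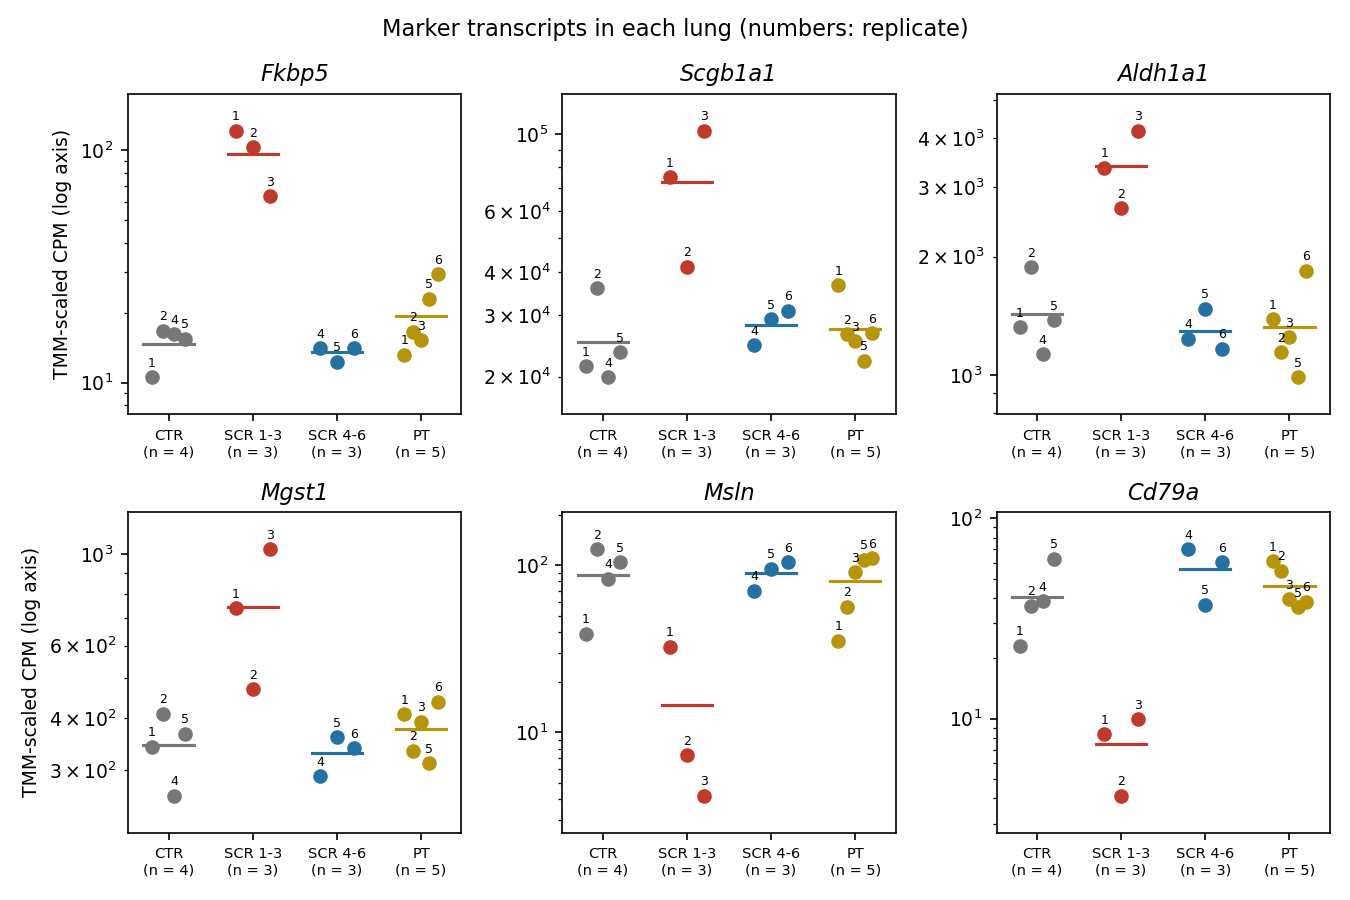
CPM of the 6 marker transcripts (log axis) in each lung, 1 point per lung with its replicate number, by group and set, with the mean as a line. SCR lungs 1 to 3 lie above all 12 other lungs for Fkbp5 (63.4 to 121 CPM), Scgb1a1, Aldh1a1 and Mgst1, and below them for Msln and Cd79a.

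Glucocorticoid response genes stood higher in lungs 1 to 3 as a group. Of 24 members that passed the filter, of 25 listed, 17 were higher without overlap, 15 of them over 2-fold, and 0 lower, with a median log2 fold change of 1.37 against 0.01 for all genes. Over all genes, 22% were higher without overlap, 2.47% over 2-fold as well, and 21.2% lower. Lungs 1 to 3 lay above all 12 other lungs for 13 members, against 6.29% of all genes. Zbtb16, a zinc finger repressor, had 78.7, 220 and 118 CPM against 12.3, 12.7 and 8.69 CPM (log2 fold change 3.63, standard error 0.78). PT lung 6, at 57.7 CPM of Zbtb16, lay between the sets, and the other CTR and PT lungs had 6.83 to 18.4 CPM. Hif3a, a member of the hypoxia-inducible factor family, had 11.7, 11.4 and 6.70 CPM against 0.636, 1.80 and 0.652 CPM, and Map3k6, a stress kinase, 53.1, 53.4 and 34.9 CPM against 6.73, 7.13 and 8.48 CPM. Sult1a1, a sulfotransferase, had 141, 118 and 126 CPM against 26.4, 36.7 and 32.7 CPM, and Angptl4, an inhibitor of lipoprotein lipase, 61.9, 67.8 and 64.9 CPM against 11.02, 23.0 and 22.4 CPM. Further down the list were Pdk4 (log2 fold change 1.69), the metallothioneins Mt2 (1.67) and Mt1 (1.49), Glul (1.52), Ddit4 (1.46) and Cebpd (1.28). Some standard targets did not part the sets. Sgk1 (0.06), Dusp1 (-0.49) and Lcn2 (0.61) overlapped. Tat (0.01, standard error 1.18) did as well, but at means of 0.418 CPM in lungs 1 to 3 and 0.398 CPM in lungs 4 to 6 its fold is poorly known. Tsc22d3 lies on the X chromosome and was not analysed here.

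Other genes among the 12 highest by fold held roles in metabolism, signalling and secretion. Klf15, a transcription factor of amino acid and lipid metabolism that glucocorticoids induce, had 141, 104 and 89.3 CPM against 26.9, 24.2 and 24.6 CPM (log2 fold change 2.14, standard error 0.20). Rasd1, a Ras-like protein first found as induced by dexamethasone, had 13.7, 7.53 and 9.77 CPM against 1.85, 1.45 and 1.45 CPM, and Fam107a, an actin-associated protein, 217, 205 and 110 CPM against 18.6, 20.1 and 12.97 CPM. Rgcc, a regulator of the cell cycle, had 322, 194 and 194 CPM against 39.5, 35.8 and 41.7 CPM, and lay at 34.04 to 55.3 CPM in the CTR and PT lungs. Cst8, a cystatin-related protein, had 13.7, 10.8 and 14.1 CPM against 1.64, 2.28 and 1.59 CPM. Angptl7, a secreted angiopoietin-like protein, had 21.7, 8.59 and 3.47 CPM against 2.70, 2.35 and 1.52 CPM, and SCR lung 3 lay within the range of the CTR and PT lungs (0.691 to 6.77 CPM).

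Promoter sequence of 3 of these genes is shown because Fkbp5, Klf15 and the clock gene Per1, all higher in lungs 1 to 3, carry, as a search of promoters found, the canonical E-box of the clock (CACGTG, on either strand), which BMAL1 and CLOCK bind. Each window runs from 250 bases before to 50 bases after the start of the gene (RefSeq, GRCm38.p6), in the direction of transcription, with the E-box in capitals. The windows are chr17:28486100-28486399 (minus strand) for Fkbp5, chr6:90462326-90462625 (plus strand) for Klf15, and chr11:69098699-69098998 (plus strand), 1 of 2 windows, for Per1. A letter match describes the sequence and says nothing of binding.
Fkbp5: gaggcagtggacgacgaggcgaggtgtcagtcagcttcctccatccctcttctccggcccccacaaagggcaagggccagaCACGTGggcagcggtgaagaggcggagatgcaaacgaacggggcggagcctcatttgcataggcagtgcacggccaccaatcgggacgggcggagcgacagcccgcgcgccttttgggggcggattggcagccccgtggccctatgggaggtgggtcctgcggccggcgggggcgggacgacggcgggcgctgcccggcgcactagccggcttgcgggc
Klf15: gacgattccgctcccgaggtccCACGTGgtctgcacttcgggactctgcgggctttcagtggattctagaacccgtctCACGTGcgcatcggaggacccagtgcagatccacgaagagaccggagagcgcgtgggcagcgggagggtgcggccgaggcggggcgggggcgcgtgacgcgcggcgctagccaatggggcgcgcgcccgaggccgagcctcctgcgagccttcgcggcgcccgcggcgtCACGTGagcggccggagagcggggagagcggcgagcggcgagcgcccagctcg
Per1: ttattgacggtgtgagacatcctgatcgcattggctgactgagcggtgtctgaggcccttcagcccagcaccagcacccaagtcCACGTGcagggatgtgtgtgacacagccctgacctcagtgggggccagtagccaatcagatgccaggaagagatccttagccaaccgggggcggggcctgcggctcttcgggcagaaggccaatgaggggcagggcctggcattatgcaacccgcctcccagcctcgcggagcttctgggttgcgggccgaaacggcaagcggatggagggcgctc
Klf15 has 3 matches, at -228, -172 and -3 from the start, Fkbp5 has 1, at -169, and Per1 has 1, at -166. The E-box was in 8.09% of 27025 genes with a window and in 11.1% of those past the filter, against 7.34% of the 259 matched genes over 2-fold higher in lungs 1 to 3 and 7.29% of the 686 matched lower genes. The hexamer AGAACA of the glucocorticoid receptor element was in 21.3% of all genes with a window, in 1664 of the 11058 genes past the filter with a window, and in 1 of the 14 matched glucocorticoid response genes that were higher (Sult1a1). The full element (AGAACA, NNN and TGTTCT) was in 3 of the 27025 genes and in none of these 14, and such elements often lie outside a window of this size.

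Some clock genes were higher in lungs 1 to 3. Of 20 members, 7 were higher without overlap, 6 of them over 2-fold, and 0 lower, while 13 overlapped. Over all genes, 22% were higher without overlap, 2.47% over 2-fold as well, and 21.2% lower. The median log2 fold change was 0.69, and it was 0.41 without SCR lung 1, 1.06 without SCR lung 4, 0.37 without SCR lung 5 and 1.47 in male lungs alone. Per2, a repressor of the clock, had 98.4, 103 and 83.0 CPM in lungs 1 to 3 and 33.5, 10.0 and 27.5 CPM in lungs 4 to 6, and 6.45 to 33.97 CPM in the CTR and PT lungs. Per1, its paralogue and itself a glucocorticoid target, had 129, 84.0 and 79.7 CPM against 27.3, 28.02 and 52.2 CPM, but CTR lung 4 reached 93.2 CPM. The repressor Cry1 had 32.1, 48.6 and 32.5 CPM against 14.3, 13.4 and 12.9 CPM. The output genes Usp2 (log2 fold change 1.37) and Tef (1.01) and the repressor Cry2 (0.85) were higher without overlap as well. The activators Arntl (the gene of BMAL1), Npas2 and Clock had log2 fold changes of -1.32, -1.10 and -0.56, and all overlapped between the sets. Nr1d1 (-0.79) and Dbp (0.70) also overlapped. The hour at which each lung was taken is not given in the sources used here, and its part in the glucocorticoid and clock transcripts was not tested.

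Heat shock proteins, the chaperones that fold and protect proteins under stress, were higher in lungs 1 to 3 with 12 of 14 members not overlapping, 8 of them over 2-fold, and 0 lower (median log2 fold change 1.32). The shares over all genes were 22% higher without overlap, 2.47% over 2-fold as well, and 21.2% lower. Hspa8, the constitutive chaperone of the family, had 1214, 1233 and 1102 CPM against 364, 388 and 432 CPM, outside the range of the CTR and PT lungs (477 to 960 CPM). Its inducible relative Hspa1b had 28.4, 82.03 and 29.5 CPM against 3.28, 13.5 and 5.29 CPM. For Hspa1b the CTR and PT lungs ran from 6.67 to 79.9 CPM, so lungs 1 to 3 were not outside them, and lungs 4 and 6 were the lowest of all. Hspa1a and Hspa1b are near-identical neighbours, and reads may be split between them. Hsph1, a partner of Hspa8 in folding, had 155, 292 and 181 CPM against 42.7, 60.6 and 57.2 CPM. Dnaja1 had 244, 283 and 222 CPM against 86.0, 106 and 94.0 CPM, and this co-chaperone lay outside the other 9 lungs as well. The promoter of Hsph1 (chr5:149636287-149636586, minus strand, 1 of 2 windows) is shown because it holds a heat shock element, in capitals, a run of GAA, TTC and GAA with NN between each. The match lies on the opposite strand, 36 from the start.
Hsph1: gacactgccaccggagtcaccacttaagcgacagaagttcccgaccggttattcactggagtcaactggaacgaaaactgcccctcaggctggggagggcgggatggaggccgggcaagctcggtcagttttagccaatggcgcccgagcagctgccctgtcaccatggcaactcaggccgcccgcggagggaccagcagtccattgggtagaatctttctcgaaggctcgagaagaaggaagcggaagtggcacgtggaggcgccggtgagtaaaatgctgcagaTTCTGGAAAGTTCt
That motif was in 0.662% of all genes with a window and in 3 of the 8 matched heat shock genes that were higher, Hspd1, Hspe1 and Hsph1. Genes of protein folding in the endoplasmic reticulum were higher without overlap for 16 of 24 members, 4 over 2-fold, with a median log2 fold change of 0.55. In mean log2 CPM the list was at 6.61 to 6.79 in lungs 1 to 3 and at 6.25 to 6.82 in the PT lungs. Lungs 1 to 3 lay above all 12 others for only 2 members, Herpud1 and Ddit3, against 6.29% of all genes. Herpud1, a component of degradation at that organelle, had 329, 261 and 306 CPM against 137, 102 and 132 CPM, and Ddit3, the stress factor CHOP, 44.6, 36.1 and 36.5 CPM against 18.3, 17.7 and 17.4 CPM.

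Enzymes of detoxification, many of them made in club cells, were higher in lungs 1 to 3. Of 30 enzymes, 18 were higher in lungs 1 to 3 without overlap, 12 of them over 2-fold, and 0 lower, with a median log2 fold change of 0.88, and for 10 of them lungs 1 to 3 lay above all 12 others. Among all genes, 22% were higher without overlap, 2.47% over 2-fold as well, 21.2% lower, and 6.29% above all 12 others. Gsta3, a glutathione transferase, had 573, 459 and 545 CPM against 132, 214 and 151 CPM. The cytochrome P450 Cyp2b10 had 756, 522 and 665 CPM against 242, 232 and 215 CPM, and the carboxylesterase Ces1d 1798, 1350 and 1920 CPM against 587, 597 and 622 CPM. Cyp1a1, an enzyme induced through the aryl hydrocarbon receptor, had 77.2, 25.7 and 22.1 CPM against 8.16, 18.5 and 16.2 CPM, with the other 9 lungs from 15.3 to 47.9 CPM. Adh7 (log2 fold change 0.16) and Fmo1 (0.12) were among the members that overlapped.

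Of 13 club cell markers, 6 were higher without overlap, 5 over 2-fold, and 1 was lower, against 22%, 2.47% and 21.2% of all genes. Scgb1c1, a relative of Scgb1a1, had 39.7, 18.4 and 40.1 CPM against 9.38, 13.7 and 9.35 CPM, and Cbr2, a carbonyl reductase, 9191, 3682 and 8624 CPM against 3151, 2029 and 2371 CPM. The lower member was Muc5b, a gel-forming mucin of the airway, with 11.5, 6.08 and 3.78 CPM against 65.4, 21.8 and 58.4 CPM, and with 3.50 to 69.3 CPM in the other lungs. SCR lung 2 did not follow lungs 1 and 3 on the list as a whole. Its mean log2 CPM of the club cell list was 7.53, below the 7.57 to 8.02 of lungs 4 to 6, while lungs 1 and 3 were at 8.56 and 8.59.

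Transcripts of the mesothelium were lower in lungs 1 to 3, with lung 1 the closest of the set to the other lungs. Of 15 markers, 11 were lower without overlap, 9 of them over 2-fold, and 1 higher (Krt7, a keratin of simple epithelia, log2 fold change 0.41), and the median log2 fold change was -2.46 (-4.40 without SCR lung 1). The shares over all genes were 21.2% lower without overlap, 7.34% over 2-fold as well, and 22% higher. Lrrn4, a leucine-rich repeat membrane protein, had 2.25, 0.836 and 0.473 CPM in lungs 1 to 3 against 21.2, 36.6 and 29.3 CPM in lungs 4 to 6. Wt1, the transcription factor of the mesothelium, had 0.699, 0.167 and 0.0788 CPM against 4.72, 7.96 and 6.16 CPM (log2 fold change -4.33, standard error 0.64). Bnc1, a zinc finger factor, had 0.776, 0.446 and 0 CPM against 7.26, 13.5 and 9.42 CPM, and Aldh1a2, which makes retinoic acid, 11.4, 2.40 and 1.42 CPM against 34.9, 61.8 and 49.99 CPM. For 7 of the 15 markers lungs 1 to 3 lay below all 12 others, against 7.23% of all genes. The keratin Krt19, and Nkain4 and Cpe, overlapped between the sets. In mean log2 CPM the list was at 3.70, 2.40 and 1.69 in lungs 1 to 3 and at 4.76, 5.22 and 4.88 in lungs 4 to 6, and PT lung 1 (3.99) and CTR lung 1 (3.999) were the lowest of the others. Itln1, a lectin that binds sugars of microbes, had 1.32, 1.00 and 0.946 CPM against 9.32, 10.2 and 75.8 CPM.

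B cell transcripts were lower in lungs 1 to 3 for nearly every marker. Of 18 markers, 17 were over 2-fold lower in lungs 1 to 3, and for each of these 17 lungs 1 to 3 lay below all 12 other lungs, with a median log2 fold change of -2.98 for the list. Among all genes, 7.34% were over 2-fold lower without overlap and 7.23% lay below all 12 others. Pax5, the transcription factor that holds B cell identity, had 3.73, 1.78 and 2.60 CPM against 54.1, 31.4 and 44.0 CPM, and 15.8 to 51.8 CPM in the CTR and PT lungs. Cr2, the complement receptor of mature B cells, had 1.71, 3.07 and 4.33 CPM against 33.4, 17.7 and 38.3 CPM. Bank1, a scaffold of B cell signalling, had 2.72, 1.84 and 4.89 CPM against 38.3, 25.1 and 26.5 CPM. The transcription factors Bcl11a and Pou2f2 and the B cell protein Fcrla, all among the 12 lowest by fold, had log2 fold changes of -3.45, -3.35 and -3.35. The exception was Vpreb3, a protein of early B cells, which was higher in lungs 1 to 3 (52.7 CPM in lung 3 against 13.6 to 22.0 CPM, log2 fold change 1.33). It lies next to Chchd10 and Gm867 on chromosome 10, and whether the counting used strand is not stated, so its reads may include those of a neighbour.

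Plasma cell and lymphoid tissue genes were lower as well. Of 12 plasma cell markers, 8 were lower without overlap and 2 higher (Xbp1 and Sdc1, which other cells also use), with a median log2 fold change of -1.66. For the lists of this paragraph, the shares over all genes were 21.2% lower without overlap, 7.34% over 2-fold as well, and 22% higher. Igkc, the kappa light chain constant region, had 35.2, 17.1 and 36.6 CPM against 204, 143 and 191 CPM, and Jchain, which joins secreted antibodies, 2.02, 1.56 and 1.10 CPM against 13.1, 13.6 and 18.7 CPM. Ccr7, the receptor that brings lymphocytes and dendritic cells to lymphoid tissue, had 2.87, 2.96 and 3.94 CPM against 18.8, 16.3 and 20.1 CPM, and Ltb, a lymphotoxin of lymphoid organisation, 11.5, 6.97 and 10.4 CPM against 38.6, 23.0 and 48.8 CPM. Itga4, the integrin subunit of lymphocyte homing, had 11.9, 25.6 and 19.8 CPM against 113, 120 and 128 CPM. Of 14 T cell markers, all were lower without overlap, 13 over 2-fold, but none lay below all 12 other lungs. Cd3e, a chain of the T cell receptor complex, had 0.0776, 0.167 and 0 CPM in lungs 1 to 3 and 1.64, 3.53 and 6.95 CPM in lungs 4 to 6. In the CTR lungs Cd3e was at 0.0607, 0.373, 0.184 and 3.51 CPM, so only CTR lung 5 reached the level of SCR lungs 4 to 6. The mean log2 CPM of T cell markers was 0.00 to 0.25 in lungs 1 to 3, 0.08 to 0.44 in CTR lungs 1, 2 and 4, and 1.90 to 2.86 in SCR lungs 4 to 6. Of 11 natural killer cell markers, 10 were lower without overlap (median -1.04), and none lay outside all 12 others.

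**Figure D3:**
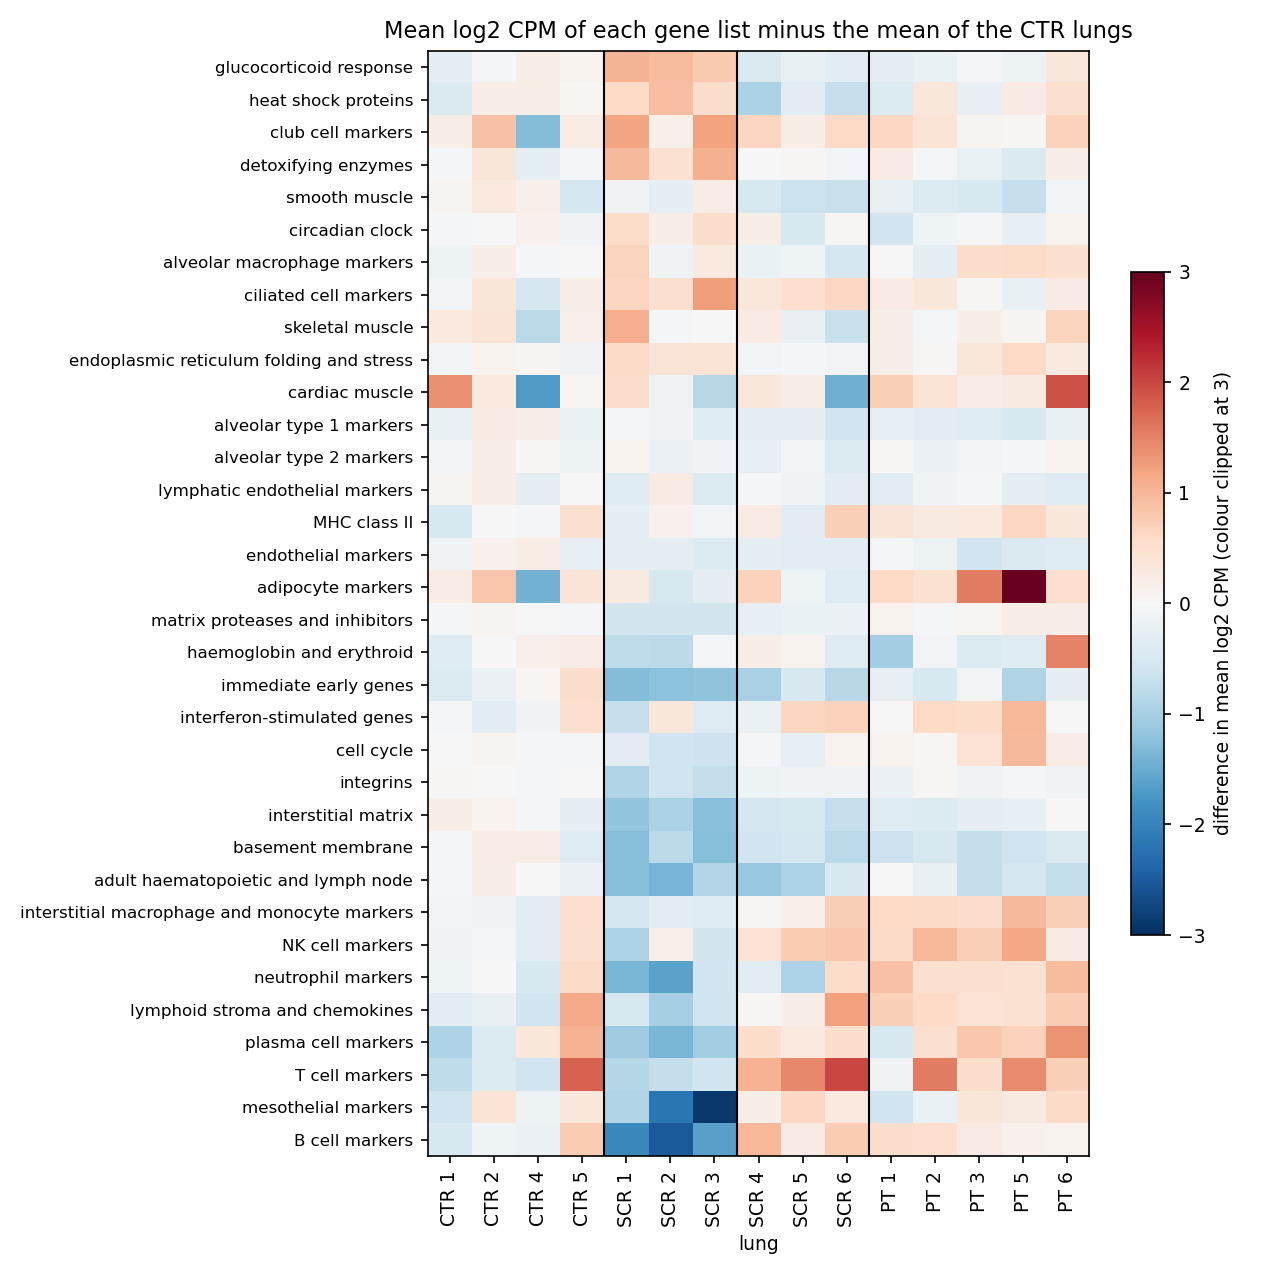
Mean log2 CPM of the genes of each list (rows) in each of the 15 lungs (columns), as the difference from the mean of the 4 CTR lungs, in colour clipped at 3. SCR lungs 1 to 3 are lowest for B cell and mesothelial markers and highest for glucocorticoid response genes, while T cell markers are low in CTR lungs 1, 2 and 4 as well and high in CTR lung 5.

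Myeloid transcripts differed by kind. Of 17 neutrophil markers, 6 were over 2-fold lower in lungs 1 to 3, against 7.34% of all genes, and none higher without overlap (median -1.41). That median was -0.42 without SCR lung 6, -0.23 in male lungs alone, and -0.55 on the FPKM plus 0.1. Csf3r, the receptor of the neutrophil growth factor G-CSF, had 29.3, 26.6 and 40.2 CPM against 116, 91.7 and 145 CPM. Of 14 genes of interstitial macrophages and monocytes, 8 were lower without overlap and 2 higher, against 21.2% and 22% of all genes. Cx3cr1, the fractalkine receptor, had 3.80, 9.59 and 6.62 CPM against 29.99, 32.2 and 41.1 CPM, and Ly6c2, a surface protein of inflammatory monocytes, 5.28, 8.36 and 9.38 CPM against 19.1, 41.4 and 56.9 CPM. The integrin Itgam of myeloid cells had 11.3, 13.8 and 17.7 CPM against 53.5, 55.2 and 74.98 CPM. Alveolar macrophage markers lay the other way, with 8 of 14 higher without overlap and none lower (median 0.62). Chil3, a chitinase-like protein of these cells, had 1800, 1007 and 1444 CPM against 454, 819 and 416 CPM, and the CTR and PT lungs (416 to 1198 CPM) covered lung 2. Among 18 interferon-stimulated genes, 4 were lower without overlap, about the share over all genes (21.2%), and 1 higher. Mx1 had 2.02, 2.17 and 1.10 CPM against 6.15, 12.2 and 8.04 CPM, and Ifit3 88.0, 82.7 and 69.3 CPM against 33.4, 45.8 and 37.7 CPM.

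In the mean log2 CPM of interstitial matrix genes, lungs 4 to 6 lay below all 4 CTR lungs and lungs 1 to 3 below lungs 4 to 6. Of 28 interstitial matrix genes, 14 were lower in lungs 1 to 3 than in 4 to 6 without overlap, 10 over 2-fold, and none higher. For the lists of this paragraph, the shares over all genes were 21.2% lower without overlap, 7.34% over 2-fold as well, and 22% higher. Against CTR the median log2 fold change of the interstitial matrix list was -1.15 in lungs 1 to 3 and -0.65 in lungs 4 to 6, and the CTR lungs are shared by both values. Col1a1, the main fibrillar collagen chain, had 32.8, 36.1 and 19.2 CPM in lungs 1 to 3, 92.3, 101 and 72.1 CPM in lungs 4 to 6, and 109 to 193 CPM in the CTR lungs. Col3a1 had 86.2, 121 and 77.0 CPM against 291, 288 and 228 CPM, and the cross-linking enzyme Loxl1 25.4, 28.6 and 25.5 CPM against 72.6, 85.6 and 69.3 CPM. The basement membrane genes had medians of -1.10 and -0.64 against CTR, with 8 of 19 lower in lungs 1 to 3 without overlap and none over 2-fold, and their mean log2 CPM overlapped between the sets (6.562 in SCR lung 2 and 6.558 in SCR lung 6). Hspg2, the proteoglycan perlecan, had 54.3, 69.9 and 38.5 CPM against 110, 116 and 77.5 CPM. Other matrix genes, among them Dcn (log2 fold change 0.10), Sparc (-0.02) and Mfap4 (-0.04), overlapped between the sets. Genes of the immediate early response, first to be transcribed after a stimulus, were lower without overlap for 11 of 26 members and higher for 2 (Ctgf and Maff). Egr1 had 12.5, 20.4 and 19.7 CPM against 106, 91.6 and 28.6 CPM, Fos 17.1, 23.5 and 21.9 CPM against 66.2, 99.4 and 32.4 CPM, and in both genes SCR lung 6 was the lowest of its set. The matrix inducer Ctgf had 370, 267 and 279 CPM against 97.9, 158 and 126 CPM.

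Markers of structural cells of the lung lay on both sides. Over all genes, 22% were higher without overlap, 2.47% over 2-fold as well, and 21.2% lower. Of 15 alveolar type 2 markers, 7 were higher without overlap and 3 lower, with 1 over 2-fold (Sftpd, 1610, 922 and 1280 CPM against 605, 711 and 513 CPM). Sftpc itself had 32928, 18308 and 20249 CPM against 11764, 13141 and 10908 CPM, with 14240 to 22922 CPM in the CTR and PT lungs, while Etv5, a transcription factor of these cells, was lower (80.6, 81.4 and 84.7 CPM against 134, 136 and 104 CPM). Of 15 endothelial markers, 4 were higher and 4 lower, near the shares over all genes (22% and 21.2%). Ramp2, a short receptor partner protein, had 688, 557 and 532 CPM against 289, 242 and 300 CPM, and Kdr, the receptor of vascular endothelial growth factor, 210, 290 and 292 CPM against 507, 508 and 496 CPM. Among 10 smooth muscle genes, 6 were higher without overlap, 3 over 2-fold, and 1 lower, with a median log2 fold change of 0.74. Against CTR the median was 0.09 in lungs 1 to 3 and -0.64 in lungs 4 to 6. In mean log2 CPM of the list, lungs 1 to 3 (5.88 to 6.41) lay within the range of the CTR lungs (5.65 to 6.46). Cnn1, calponin of the contractile apparatus, had 44.2, 40.9 and 81.3 CPM against 24.9, 18.7 and 20.5 CPM, and the other 9 lungs had 23.8 to 56.7 CPM. None of 12 cardiac muscle genes parted the sets.

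In the remaining lists some members parted the sets without overlap. Over all genes, 21.2% were lower without overlap, 7.34% over 2-fold as well, and 22% higher. Of 24 integrins, 12 were lower without overlap, 5 over 2-fold, and 1 higher, and those past 2-fold were led by Itga4, Itgam and the leukocyte integrin Itgal (log2 fold change -1.69). Of 25 matrix proteases and inhibitors, 12 were lower and 5 higher, with Mmp9, a gelatinase that neutrophils store, at -2.02. Of 20 cell cycle genes, 9 were lower and 2 higher, with the proliferation marker Mki67 at -1.58. Of 6 lymphoid stroma and chemokine genes, 4 were lower. Of 10 MHC class II genes, 3 were lower, among them H2-Ob (-2.13), a modulator of peptide loading that B cells carry, and none higher. Of 14 alveolar type 1 markers, 7 were higher and none lower, against 22% and 21.2% of all genes. Of 15 ciliated cell markers, 4 were higher, a share near that over all genes, and 1 lower. The counts for short lists, beside 22% higher and 21.2% lower over all genes, were those of lymphatic endothelial markers (2 lower of 6), adipocyte markers (2 higher and 1 lower of 11), haemoglobin and erythroid genes (2 lower of 8), skeletal muscle genes (1 higher of 6) and genes of haematopoietic tissue and lymph node (1 lower of 5).

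Lungs 1 to 3, more than lungs 4 to 6, stood outside the rest of the series. They lay above all 12 other lungs for 975 genes (6.29%) and below them for 1120 genes (7.23%), and 207 and 545 of these were also over 2-fold from lungs 4 to 6. Lungs 4 to 6 lay above all 12 others for 63 genes (0.407%) and below them for 147 genes (0.949%). Leaving out SCR lung 2 raised the counts for the first set to 2367 and 1801. With any 1 lung left out these counts were at least 997 and 1153, so part of the rise comes with having fewer lungs. Leaving out SCR lung 4, 5 or 6 in turn gave 173, 170 and 159 genes above and 350, 308 and 320 genes below for the second set, in which fewer lungs are easier to place outside a range, and without SCR lung 3 it had 103 above. Against CTR, the median log2 fold change of glucocorticoid response genes was 0.82 in lungs 1 to 3 and -0.27 in lungs 4 to 6, of B cell markers -2.36 and 0.55, of mesothelial markers -2.24 and 0.15, of heat shock proteins 0.83 and -0.46, and of T cell markers -1.29 and 1.01. The medians of all genes against CTR were -0.01 and -0.02.

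The largest differences included genes driven by 1 lung. Clca1, a secreted protein of goblet cells, had 0 counts in lungs 1 to 3 and 0.636, 4.84 and 168 CPM in lungs 4 to 6. Against a floor of 3 counts over the set (0.0690 CPM), it was at least 837-fold lower in lungs 1 to 3, but SCR lung 6 carried nearly all of its counts, PT lung 6 had 177 CPM and CTR lung 5 40.2 CPM, and the other CTR and PT lungs were at or under 0.969 CPM. Reg3g, a secreted lectin against bacteria, had 5.67, 1.17 and 4.49 CPM against 31.2, 11.4 and 110 CPM.

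Gene length moved with the difference between the sets. From the shortest to the longest quintile of genes by exonic length, the median log2 fold change went from 0.36 through 0.17, 0.05 and -0.09 to -0.28, and the share of genes above 0 from 69.3% to 23.8%. Lung by lung, the median of the shortest quintile minus that of the longest, relative to CTR, was 0.98, 0.24 and 0.68 in SCR lungs 1 to 3 and -0.03, -0.06 and 0.14 in lungs 4 to 6. PT lung 1 was at 0.61 and the other CTR and PT lungs between -0.17 and 0.27. Over quintiles of GC content the median ran only from -0.11 to 0.09. With a loess trend on length removed, an alternative added after the data were seen, 230 genes were higher and 1129 lower over 2-fold, or 16.9% higher. The median of glucocorticoid response genes was then 0.93, of heat shock proteins 1.11, of mesothelial markers -2.75, of B cell markers -3.07 and of T cell markers -2.32, and the median of smooth muscle genes stayed at 0.74. Other lists lay closer to 0 after the correction. The median moved from -0.46 to -0.25 for interstitial matrix genes, from -0.48 to -0.21 for basement membrane genes, from -0.45 to -0.21 for integrins, from 0.62 to 0.35 for alveolar macrophage markers, from 0.59 to 0.30 for ciliated cell markers and from 0.55 to 0.36 for folding in the endoplasmic reticulum. Those of immediate early genes (-0.33 to -0.55) and interferon-stimulated genes (-0.42 to -0.64) moved away from 0. RNA integrity was not given per lung, and its part was not tested.

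**Figure D4:**
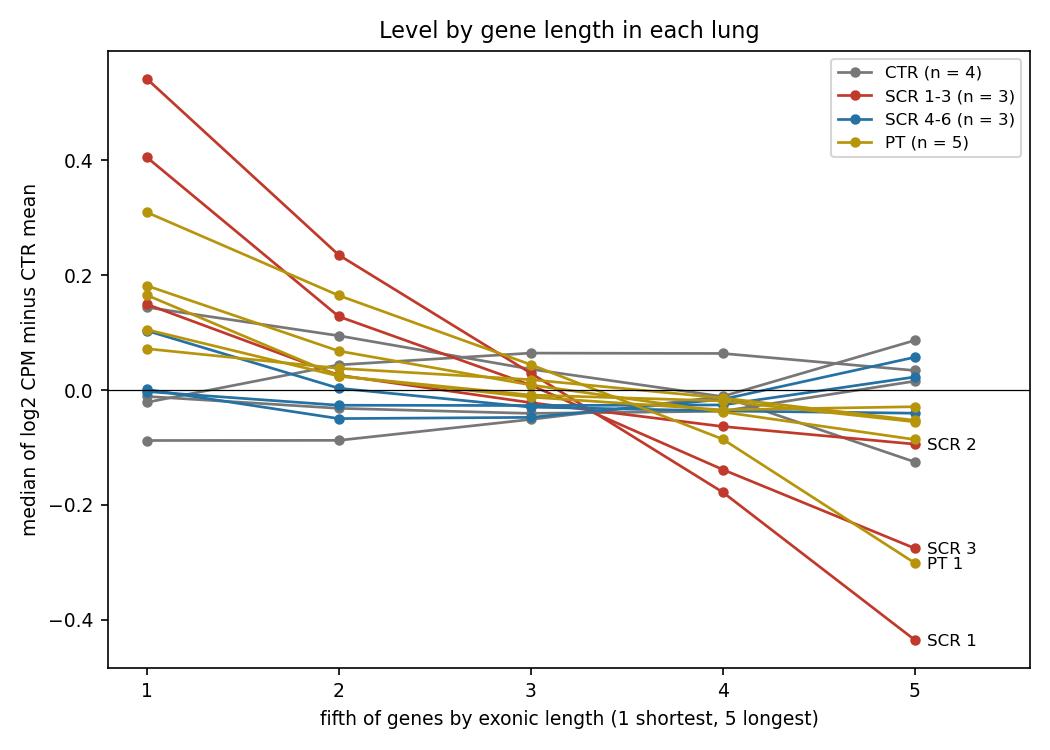
Median log2 CPM minus the CTR mean (vertical axis) over quintiles of genes by exonic length (horizontal axis, 1 shortest), 1 line per lung, coloured by group. SCR lungs 1 and 3 and PT lung 1 slope downwards the most, with SCR lung 2 at 0.24 between its shortest and longest quintile.

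Whether the marker genes of the sets go with other genes in lungs that were not used to make the sets was tested in the 9 CTR and PT lungs. In each fit the slope of every gene on the log2 CPM of 1 covariate gene was tested with edgeR's quasi-likelihood test, with the group as a term, over 14962 genes. On Msln, 1 gene passed a Benjamini-Hochberg adjusted p of 0.05 (0.00668%). It was Upk3b, a uroplakin of mesothelial cells, with a slope of 0.94 log2 CPM per log2 CPM of Msln (standard error 0.093, edgeR adjusted p = 0.0126). The next genes by p were Igfbp5, Upk1b and Cldn15 (edgeR adjusted p = 0.0934 each), Bnc1, Aldh1a2 and Lrrn4, and the median slope of 14 mesothelial markers was 0.78 against 0.004 over all genes. Leaving out CTR lung 1 or 4 or PT lung 1, 2, 5 or 6 left 0 genes. On Cd79a, 0 genes passed with edgeR (0%), 720 had an unadjusted p under 0.05, and limma-voom also gave 0. The median slope of 17 B cell markers was 0.79 and of 13 T cell markers 1.03, and the smallest p belonged to Pou2af1, the B cell coactivator (slope 0.88, edgeR adjusted p = 0.319). Without CTR lung 5, 1353 genes passed on Cd79a. That lung had the highest Cd79a of the 9 (6.01 log2 CPM) and the highest mean log2 CPM of T cell markers (2.62). The other CTR lungs were at 0.08 to 0.44 in T cell markers. On Scgb1a1, 0 genes passed (0%), 2595 had an unadjusted p under 0.05 with edgeR, limma-voom gave 0, and 2035 passed without CTR lung 4. PT lung 1 and CTR lung 2 had the highest Scgb1a1 of the 9 (15.17 and 15.14 log2 CPM). In them the shortest gene quintile minus the longest was 0.61 and 0.27. It was -0.06 and -0.17 in CTR lungs 4 and 1, the lowest in Scgb1a1 (14.29 and 14.41 log2 CPM). The part of gene length in these slopes was not tested. The smallest p on Scgb1a1 was that of Gsta4, a glutathione transferase (slope 1.16, edgeR adjusted p = 0.208). The median slope of 30 detoxifying enzymes was 0.76. Those of 15 ciliated cell markers (0.85), 12 club cell markers (0.84) and 5 skeletal muscle genes (0.82) were larger. On Fkbp5, 0 genes passed (0%) with edgeR, 382 had an unadjusted p under 0.05, and limma-voom gave 0. The median slope of 22 glucocorticoid response genes was 0.32. The largest median slope on Fkbp5 was that of 8 erythroid genes (1.32, all positive and at an unadjusted edgeR p under 0.05). Next came 15 mesothelial markers (1.04, all positive, 7 at an unadjusted edgeR p under 0.05). T cell (0.87), adipocyte (0.71), plasma cell (0.59), heat shock (0.57) and alveolar macrophage genes (0.39) also had larger medians than the glucocorticoid response genes. No member of these lists passed adjustment with edgeR. The mesothelial slope was positive, whereas in the SCR lungs high Fkbp5 went with low mesothelial markers. PT lung 6 had the highest Fkbp5 of the 9 lungs (4.90 log2 CPM). Its mean log2 CPM of erythroid genes was 8.30, against 5.79 to 7.03 in the others. How far the erythroid slope rests on PT lung 6 was not tested. Fkbp5 spanned 1.46 log2 units in these 9 lungs, against 2.83 between the sets of SCR lungs.

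**Figure D5:**
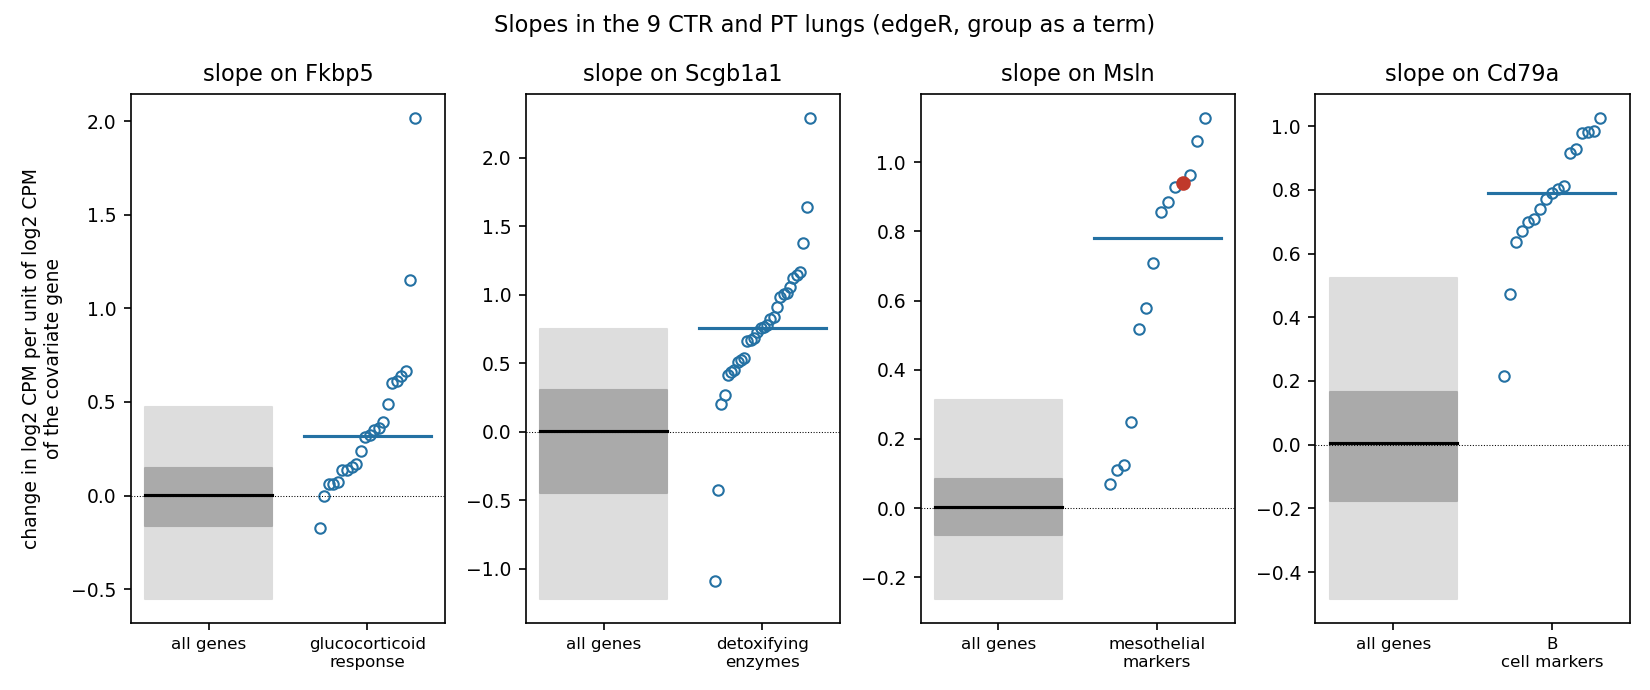
Slopes on Fkbp5, Scgb1a1, Msln and Cd79a in the 9 CTR and PT lungs, in log2 CPM per log2 CPM. Light and dark grey bands hold the middle 90% and 50% of all genes, the black line is their median, and circles are the members of 1 list each. Upk3b (slope 0.94 on Msln, red) was the 1 member past an adjusted p of 0.05.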

How the data were processed

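RNA of the 15 lungs was sequenced single-end (TruSeq, NovaSeq6000). The authors trimmed reads (cutadapt 1.15), removed contaminants (Bowtie2 2.3.3.1), aligned to GRCm38 (Ensembl 82) with STAR 2.5.2b and handled alignments with SAMtools 1.5, and featureCounts 1.5.3 is named by the submitters' processing notes. The deposited counts are raw reads per Ensembl gene, with gene length and GC content in percent from the authors. The deposited FPKM were normalized by the authors with EDASeq within and between lungs, so they are not raw values, and cover 16137 genes. The table held 46603 genes, of which 27075 had a read. Chromosomes came from GENCODE M21 by Ensembl ID for 46091 genes (98.9%), and 260 further genes were added by symbol. There were 0 unused columns of values.

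Of 16062 genes past edgeR's filter by set, 15496 remained without X-linked, Y-linked and unplaced genes. The quasi-likelihood fit of edgeR 4.0.16 (R 4.3.3, TMM, robust) held 4 sets (CTR, SCR lungs 1 to 3, SCR lungs 4 to 6 and PT). CPM are TMM-scaled, list levels are means of log2 CPM with a prior count of 2, and a gene was counted when the sets did not overlap and, where stated, differed over 2-fold. The sets were chosen on these values, so no test was read from them. Slopes on covariate genes were tested in the 9 CTR and PT lungs. Library measures come from the same counts and are given as a description. Precision rests on counting error for rare transcripts and on 3 lungs per set.

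The sets, markers and lists were chosen with earlier results of these data known. Genes named are the 6 markers, the 12 largest differences in each direction among named genes (no Gm or Rik models, pseudogenes or mitochondrial genes) with a mean of at least 5 CPM over the 6 lungs and no overlap, up to 6 members of each list and members needed to describe it, and the 10 smallest p of each slope. Promoters are from RefSeq (GRCm38.p6), and motifs were searched on both strands. Alternatives were other scalings and filters, DESeq2 1.42.0, limma 3.58.1, the FPKM with pseudocounts of 0.1 and 1, a GC correction, another fold, and each lung left out. A length correction and male lungs alone were added after the data were seen. The scripts were tested on simulated data. Python 3.11.15, numpy 2.4.6, pandas 2.3.3 and matplotlib 3.10.9 were used. Values of a few list members are not reported here.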

Additional observations from a re-analysis of the deposited data

Results flagged for a closer look

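Of 204 tests for a lung far from the rest of its group, 15 marked a lung, and chance marks about 1 group in 20 (5%). In SCR lungs, lung 6 was far above the others for Clca1 (167.6 CPM), Itln1 (75.85 CPM) and Reg3g (109.9 CPM), lung 2 for Hspa1b (82.03 CPM) and lung 1 for Angptl7 (21.73 CPM). SCR lung 3 was highest in the mean log2 CPM of ciliated cell markers (6.007) and lowest in that of endothelial markers (8.078). In CTR lungs, lung 5 was highest for Clca1 (40.21 CPM), Pax5 (51.81 CPM) and the mean log2 CPM of T cell markers (2.622), and lung 1 was lowest for Hspa1b (6.672 CPM) and Rgcc (34.21 CPM). In PT lungs, lung 6 was highest for Zbtb16 (57.73 CPM), Clca1 (177.2 CPM) and Itln1 (47.32 CPM).

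Transcripts of the other sex appeared at low levels in 3 lungs. SCR lung 5, male by its Y-linked genes, had 27.39 CPM of Xist and PT lung 6 had 7.293 CPM, against 0.045 to 0.343 CPM in the other male lungs. SCR lung 6, female by Xist, had 61 counts over 4 Y-linked genes, where the other female lungs had 0. Whether RNA of another lung was present in these libraries was not tested.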

How the results depend on the processing

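No paired analysis was possible because the sets of SCR lungs share no replicate number and the fits in the CTR and PT lungs compare no groups. With library size only, 188 genes were over 2-fold higher, lungs 1 to 3 lay above the other 12 for 457 genes and below for 1798, and lungs 4 to 6 above for 159 and below for 44. With no filter 643 genes were higher. On FPKM plus 0.1, 724 were lower and lungs 4 to 6 lay below the others for 97 genes, and on FPKM plus 1, 220 were higher and 357 lower. The length correction gave 230 higher, a fold of 1.5 gave 1476 higher and 2037 lower, and male lungs alone, with SCR lung 5 as the only lung of its set, gave 740 higher. Without 1 lung, 319 to 746 genes were higher and 1234 to 1512 lower, lungs 1 to 3 lay above the others for 997 to 2367 genes and below for 1153 to 1801, and lungs 4 to 6 above for 64 to 173 and below for 126 to 350. The slopes gave 0 to 0 genes for Fkbp5, 0 to 2035 for Scgb1a1, 0 to 1 for Msln and 0 to 1353 for Cd79a, and limma-voom 2 for Msln. The causes were not tested. Of recomputed medians of lists, 513 moved by less than the spread between lungs and 99 by more, and of values of named genes 467 and 54. No named gene changed sign. List medians that changed sign were those of adipocyte (-0.54 to 0.60), haematopoietic (-0.85 to 0.24), MHC class II (-0.50 to 0.34) and endothelial genes (-0.29 to 0.08). Those of lymphatic endothelial (-0.14 to 0.38) and skeletal muscle genes (-0.05 to 1.00) did as well. Scgb1a1 has the same FPKM in every lung, so its difference is 0 on that scale. Genes such as Ighg1, Ighg2b and Cd3e had 1 to 4 counts over lungs 1 to 3, so their fold is poorly known.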

Other observations

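Gene families outside the lists, chosen after their values were seen, also parted the sets. Of 73 cytosolic ribosomal protein genes, 63 were higher in lungs 1 to 3 without overlap (22% of all genes) and none lower (21.2%), 21 over 2-fold (2.47%), with a median log2 fold change of 0.94. It was 0.65 after the length correction, and reads of these short genes can be shared with pseudogenes. Of 14 axonemal dynein heavy chains, the motors of cilia and among the longest transcripts, 9 were lower in lungs 1 to 3 without overlap and none higher. Their median was -0.48, and -0.02 after the length correction. Lungs 4 to 6 lay above all 12 other lungs for 8 of the 14, against 0.407% of all genes. Of 76 immunoglobulin variable genes, 70 were over 2-fold lower (median -2.92), against 7.34% of all genes. These genes are near-identical copies, so counts of single members are uncertain.

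By type of transcript, unannotated experimental transcripts (TEC) had a median log2 fold change of -0.78. Of 168, 52 were over 2-fold lower and none higher, against 7.34% and 2.47% of all genes. The median was -1.02 for sense intronic transcripts, -0.22 for long intergenic RNAs and 0.35 for processed pseudogenes. The median of protein-coding genes was 0.02.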
